A study of Mus musculus with 6 samples.

Results

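The genes described here are 9 members of the lipoprotein lipase system and of fatty acid uptake, read in mouse liver RNA. They are Cd36, Slc27a2, Lpl, Lipc, Angptl4, Angptl8, Lrp1, Vldlr and Scarb1, chosen by symbol for their roles, and they are 9 of the 41388 genes counted. All 9 passed the filter on low counts that left 17287 genes for testing. Liver RNA of male C57BL/6 mice, 12 to 16 weeks old, was sequenced as 3 control pools and 3 *Mttp-IKO* pools, each combining RNA of 3 to 4 mice. Mice of both groups carried floxed Mttp and the Villin Cre ERT2 transgene, although the labels call the controls wild type. Controls were littermates given vehicle, and *Mttp-IKO* mice were given tamoxifen for 5 days. From 3 weeks after injection all mice ate a methionine-choline-deficient (MCD) diet, a model of fatty liver with inflammation and scarring, for 3 weeks, and livers were taken after 4 h of fasting. The villin promoter drives Cre in the intestinal epithelium, so Mttp, which loads triglyceride onto nascent lipoproteins, was removed in the gut and not in the liver that was measured. Accordingly liver Mttp checks no label. It was read at 90.4, 186 and 175 counts scaled to the pool's total (CPM) in control pools 1 to 3 and at 145, 129 and 161 CPM in the *Mttp-IKO* pools 1 to 3, and the groups overlapped. A pool averages several mice, so p-values refer to the spread between pools, which is smaller than that between mice.

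Triglyceride travels in blood inside chylomicrons from the gut and very low density lipoproteins from the liver. Lipoprotein lipase, the product of Lpl, hydrolyses it at the capillary wall, and the ANGPTL proteins inhibit the enzyme. The fatty acids released enter cells with the help of CD36 and of fatty acid transport proteins such as SLC27A2, while the remnant particles are taken up by the liver through LRP1 and other receptors of the LDL receptor family. In adult liver Lpl and Cd36 are low in healthy hepatocytes and higher in fatty liver, and macrophages also make both. The comparison of the genotypes asks how the liver's genes of this system differ when the gut cannot assemble chylomicrons. Only the *Mttp-IKO* mice were given tamoxifen, so tamoxifen and the loss of Mttp cannot be told apart in any difference below.

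The pools held 25271585 to 36238734 reads on genes, so that a count of 0 would have allowed up to 3 reads, and the 9 genes had 126 to 106154 reads per pool. Levels within a gene are given as CPM after TMM scaling, and levels between genes as RPKM, the CPM per kilobase of exon. A gene is said to have risen or fallen where edgeR's quasi-likelihood test gave an adjusted p under 0.05, with Benjamini-Hochberg adjustment over all 17287 genes. By this test 694 genes changed, 159 higher and 535 lower in *Mttp-IKO* pools. *Mttp-IKO* pool 3 stood apart by its short genes, since coding genes of at least 300 and under 1000 nt took 1.84% of its reads on coding genes and 3.98 to 4.28% in the other 5 pools. Control pool 2 stood apart by striated muscle genes, since 10 markers summed to 977 CPM there, to 128 and 1.34 CPM in control pools 1 and 3, and to 0.923 to 1.71 CPM in the *Mttp-IKO* pools. Results of Cd36, Lpl, Scarb1, Angptl8, Apoc1, Furin and Fabp4 are therefore also given without these 2 pools together, as are counts of genes that passed. This alternative was chosen after the data were seen, and for other genes the text gives no such value. The liver label held, since the hepatocyte gene Alb, which encodes albumin, averaged 54150 CPM in control and 104754 CPM in the *Mttp-IKO* pools.

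Of the 9 genes, Cd36 fell and the other 8 did not pass the test. That is 1 of 9 (11.1%), beside 4.01% of all genes tested in either direction and 3.09% in the lower one, and a single gene gives no result about the 9 as a set. The 2 genotypes had no overlapping pools for 2 of the 9, Cd36 on the lower side and Scarb1 on the higher side, beside 31.0% of all genes tested. The median log2 fold change of the 9 was −0.15, with 6 below 0 and 3 above, while that of all genes tested was 0.01.

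**Figure D1:**
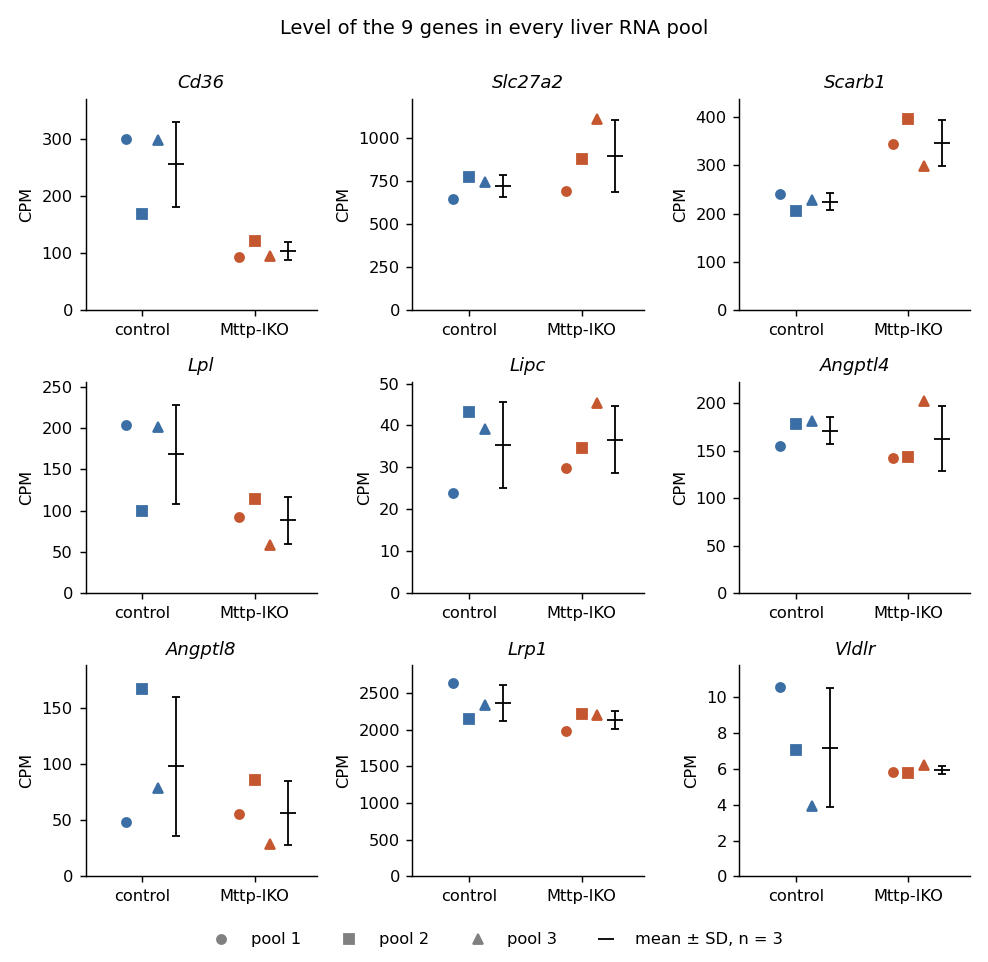
Level of each gene in CPM (y axis, from 0) in the 3 control and 3 *Mttp-IKO* pools (x axis), with 1 point per pool and the mean ± SD (n = 3) beside them. Cd36 is lower and Scarb1 higher in every *Mttp-IKO* pool than in every control pool, and the genotypes overlap for the other 7 genes.

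Cd36 encodes the fatty acid translocase, a membrane glycoprotein that binds long-chain fatty acids and oxidized lipoproteins. It was read at 299, 168 and 297 CPM in control pools 1 to 3 and at 92.2, 121 and 95.3 CPM in the *Mttp-IKO* pools 1 to 3. All 3 *Mttp-IKO* pools lay below all 3 control pools, and control pool 2 was the lowest of the controls. The mean was 255 ± 75.0 CPM in control and 103 ± 15.6 CPM in the *Mttp-IKO* pools (SD, n = 3 each), a level 2.48-fold lower. On the log2 scale it fell by 1.31 ± 0.25 (SE) with an adjusted p of 0.0358 by edgeR's quasi-likelihood test. Its size held when any 1 pool was left out, at −1.56 to −1.20, but it passed the test only when control pool 2 was the pool left out (edgeR adjusted p = 0.0119). Without control pool 1, control pool 3 or *Mttp-IKO* pools 1, 2 or 3 the edgeR adjusted p was 0.131, 0.135, 0.0909, 0.118 and 0.0536. Without control pool 2 and *Mttp-IKO* pool 3 together the log2 fold change was −1.5 with an edgeR adjusted p of 0.00366. In RNA of whole liver, fewer cells of a type and less RNA per cell cannot be told apart. Marker genes of recruited macrophages moved with Cd36, since 8 of 12 fell and none rose (66.7%, beside 3.09% of all genes on the lower side). Their summed level was 522 to 1485 CPM in control pools, lowest in control pool 2, and 241 to 317 CPM in the *Mttp-IKO* pools, and their part in the level of Cd36 was not tested.

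Slc27a2 encodes a fatty acid transport protein that is also a very long-chain acyl-CoA synthetase, and hepatocytes make much of it. Its levels were 650, 773 and 746 CPM in the controls and 693, 883 and 1116 CPM in the *Mttp-IKO* pools. The groups overlapped, and *Mttp-IKO* pool 3 was the highest of all 6. Its log2 fold change was 0.31 ± 0.22 (SE) and did not pass the test (edgeR adjusted p = 0.437), and without *Mttp-IKO* pool 3 it was 0.13. Of its 3754 exon bases, 419 (11.2%) are shared with Gm26697 on the opposite strand, and the use of strand in counting is not given in the sources used here.

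The promoters of both uptake genes of the set and of 2 further uptake genes that fell, Slc27a1 and Fabp7, are shown so that the sequence around a start can be compared, with 1 of the 3 windows given for Slc27a1. Cd36 lies on chromosome 5 (chr5:17781690-17888959, minus strand) and Slc27a2 on chromosome 2 (chr2:126552407-126588243, plus strand), and each window runs from 250 bases before a RefSeq transcription start to 50 after it on GRCm38.p6. Capitals mark the nuclear receptor half-site AGGTCA, the E-box CACGTG and the box CCAAT on either strand, so that they also appear as TGACCT and ATTGG. The windows are chr5:17835847-17836146 on the minus strand for Cd36, chr2:126552774-126553073 on the plus strand for Slc27a2, chr8:71568621-71568920 on the plus strand for Slc27a1 and chr10:57784673-57784972 on the plus strand for Fabp7.
Cd36: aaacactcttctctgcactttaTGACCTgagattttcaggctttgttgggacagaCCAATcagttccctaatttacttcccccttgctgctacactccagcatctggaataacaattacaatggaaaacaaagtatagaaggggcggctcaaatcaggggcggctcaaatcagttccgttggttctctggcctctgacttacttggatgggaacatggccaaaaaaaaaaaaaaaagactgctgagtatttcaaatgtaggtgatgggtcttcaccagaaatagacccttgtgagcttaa
Slc27a2: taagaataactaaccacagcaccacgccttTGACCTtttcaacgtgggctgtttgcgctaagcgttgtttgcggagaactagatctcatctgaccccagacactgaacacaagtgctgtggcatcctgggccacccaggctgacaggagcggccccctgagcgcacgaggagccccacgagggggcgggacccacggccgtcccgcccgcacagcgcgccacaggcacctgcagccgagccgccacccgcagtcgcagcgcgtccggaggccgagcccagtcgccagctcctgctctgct
Slc27a1: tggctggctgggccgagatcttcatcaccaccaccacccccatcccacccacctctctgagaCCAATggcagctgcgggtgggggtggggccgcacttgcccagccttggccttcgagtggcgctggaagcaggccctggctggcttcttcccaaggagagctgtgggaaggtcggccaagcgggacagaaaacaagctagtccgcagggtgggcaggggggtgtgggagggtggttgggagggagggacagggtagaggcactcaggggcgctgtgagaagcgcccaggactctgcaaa
Fabp7: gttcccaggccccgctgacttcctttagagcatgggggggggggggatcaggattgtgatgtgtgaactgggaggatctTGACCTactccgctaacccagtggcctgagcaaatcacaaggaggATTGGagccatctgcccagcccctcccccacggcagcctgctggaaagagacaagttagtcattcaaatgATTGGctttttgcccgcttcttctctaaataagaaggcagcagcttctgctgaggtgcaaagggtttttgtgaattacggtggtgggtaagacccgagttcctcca
The windows of Cd36 and Slc27a2 lie inside the gene spans given, so the outermost annotated start of each gene is not shown. The half-site begins 228 bases before the start used for Cd36, 220 before that for Slc27a2 and 171 before that for Fabp7. The half-site lies each time on the strand opposite to the gene and is absent from this Slc27a1 window. It occurs in 16.3% of the 32851 promoter windows of the genome. The box CCAAT lies 195 bases before the start in Cd36, 188 in Slc27a1, and 126 and 56 in Fabp7, and is in 37.4% of all windows. Another window of Slc27a1 (chr8:71570344-71570643, plus strand) holds the E-box CACGTG 202 and the box CCAAT 128 bases before the start, and the remaining one none of the motifs. These letters are a description of the windows. The GC content was 43.0% in Cd36, 65.3% in Slc27a2, 65.7% in Slc27a1 and 54.0% in Fabp7, beside a median of 52.7% over all windows.

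Windows were given for 6 of the 9 genes, 8 windows in all, and the direct repeat of the half-site with 1 base between its copies was in none of them. Lipc held the half-site AGGTCA 2 times in 1 of its 2 windows (chr9:70934759-70935058, minus strand), at 88 and 76 bases before the start on opposite strands. Neither window of Vldlr (chr19:27216234-27216533 and chr19:27216770-27217069, plus strand) held it, nor did those of Lrp1 and Angptl8. That repeat was in 0.0396% of all windows. The E-box CACGTG was in no window of the 6 genes and in 7.15% of all windows.

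Of 29 genes of fatty acid uptake, binding and activation, 27 were tested, and 4 fell and none rose. They were Cd36, Slc27a1, Fabp5 and Fabp7, that is 14.8% of those tested beside 4.01% of all genes. The list's median log2 fold change was 0.12, with 14 genes above 0 and 13 below, so most of its members did not follow these 4. Slc27a1, the fatty acid transport protein of muscle and fat tissue, was at 28.7, 30.3 and 35.6 CPM in the controls and at 12.3, 12.7 and 13.6 CPM in the *Mttp-IKO* pools. Its groups lay far apart with little spread, and its log2 fold change was −1.29 ± 0.15 (SE, edgeR adjusted p = 0.0151). Slc27a1 and Slc27a2 thus had fold changes of opposite sign, of which that of Slc27a1 passed the test.

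Fabp5, a fatty acid-binding protein of epidermis and macrophages, was at 37.8, 20.2 and 38.2 CPM in the controls and at 13.3, 12.2 and 6.46 CPM in the *Mttp-IKO* pools. As for Cd36, control pool 2 was the lowest of the controls (log2 fold change −1.58 ± 0.34 SE, edgeR adjusted p = 0.0448), and limma-voom gave an adjusted p of 0.0600. Fabp5 has near-identical pseudogene copies, and reads with more than 1 place were left out of the counts, so its level is uncertain. Fabp7, the fatty acid-binding protein of brain, was at 7.49, 4.63 and 7.71 CPM in the controls and at 2.58, 2.09 and 2.43 CPM in the *Mttp-IKO* pools. It was low in both groups and did not overlap between them (log2 fold change −1.48 ± 0.27 SE, edgeR adjusted p = 0.0300).

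Lpl encodes lipoprotein lipase and lies on chromosome 8 (chr8:68880491-68907448, plus strand). It was read at 204, 99.3 and 202 CPM in the controls and at 92.7, 115 and 58.3 CPM in the *Mttp-IKO* pools. The groups overlapped, because control pool 2 lay below *Mttp-IKO* pool 2. The mean was 168 ± 59.9 CPM in control and 88.5 ± 28.4 CPM in the *Mttp-IKO* pools (SD, n = 3 each), and the log2 fold change of −0.93 ± 0.34 (SE) did not pass the test (edgeR adjusted p = 0.156). The value was −1.21 to −0.70 with any 1 pool left out, where it did not pass either (edgeR adjusted p 0.0689 to 0.414). Without control pool 2 and *Mttp-IKO* pool 3 together it was −0.98 and passed (edgeR adjusted p = 0.00970). Control pool 2, the control with the least Lpl, was also the control with the lowest recruited macrophage sum of 522 CPM and the highest striated muscle sum. Muscle and fat are rich in Lpl. The adipocyte markers Adipoq, Plin1, Retn and Cfd were highest in control pool 2, at 1.52, 1.86, 0.915 and 16.4 CPM, and at no more than 0.129, 0.294, 0 and 0.774 CPM in the *Mttp-IKO* pools. The sum of all 10 adipocyte markers went the other way, at 373, 281 and 320 CPM in control pools 1 to 3. Among them Cidec was also lowest in control pool 2, at 124, 39.6 and 76.8 CPM in these pools. The part of muscle and fat tissue in the level of Lpl was not tested.

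Lipc encodes hepatic lipase, which acts on remnants and high density lipoproteins, and lies on chromosome 9 (chr9:70798129-70934808, minus strand). Its levels were 23.8, 43.1 and 39.0 CPM in the controls and 29.9, 34.7 and 45.3 CPM in the *Mttp-IKO* pools. The groups covered almost the same range. The log2 fold change was 0.05 ± 0.25 (SE, edgeR adjusted p = 0.926), and its sign turned without control pool 1, without *Mttp-IKO* pool 3 and under scaling by total counts.

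The list of lipases with the factors that fold and dock them held 10 genes, all tested. It also counted Cideb, which is neither a lipase nor named here as such a factor. None of the 10 passed edgeR's test, DESeq2 or limma-voom, with 3 at an unadjusted p under 0.05 by edgeR. The largest differences among the list's other genes were those of Calr, Lmf2 and Cideb. Calr, the chaperone calreticulin, was at 573, 678 and 664 CPM in the controls and at 540, 378 and 402 CPM in the *Mttp-IKO* pools (log2 fold change −0.54, edgeR adjusted p = 0.167). Lmf2, a relative of the lipase maturation factor, was at 44.5 to 49.8 CPM in control and at 57.9 to 65.4 CPM in the *Mttp-IKO* pools, with no overlap (log2 fold change 0.38, edgeR adjusted p = 0.155). Cideb, a lipid droplet protein of hepatocytes, was at 32.9 to 38.8 CPM in control and 17.6 to 38.1 CPM in the *Mttp-IKO* pools, and 76.4% of its exon bases are shared with Nop9 on the opposite strand.

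The ratio of Lpl to Lipc within a pool does not depend on scaling between pools. On the log2 scale, from reads per kilobase, it was 1.27, −0.62 and 0.54 in control pools and −0.19, −0.10 and −1.46 in *Mttp-IKO* pools. The groups overlapped through control pool 2, and for the means of 0.40 ± 0.96 and −0.59 ± 0.76 (SD, n = 3 each) an exact permutation test gave p = 0.3 (two-sided). The ratio of Cd36 to Slc27a2 was −1.19, −2.26 and −1.39 in control pools and −2.98, −2.94 and −3.61 in *Mttp-IKO* pools. Here no pool overlapped, and the means were −1.61 ± 0.57 and −3.18 ± 0.38 (SD, n = 3 each), a difference of −1.56. An exact permutation test gave p = 0.1 (two-sided), the smallest value that 3 pools against 3 can give. With any 1 pool left out the difference was −1.89 to −1.34.

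**Figure D2:**
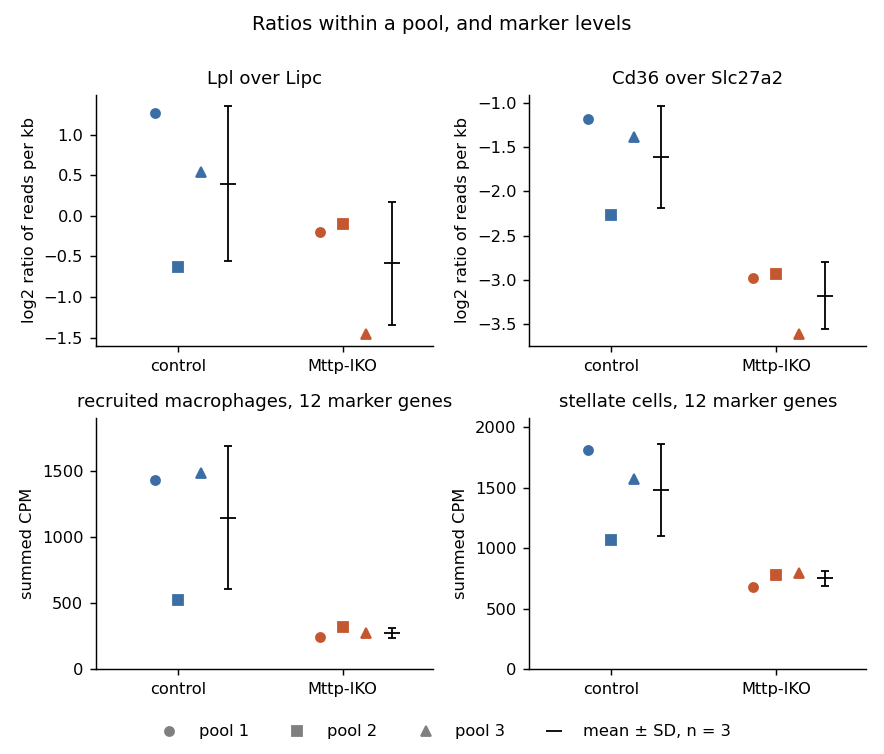
The upper panels plot the log2 ratio of reads per kilobase of Lpl to Lipc and of Cd36 to Slc27a2 (y axes) in each control and *Mttp-IKO* pool (x axes), and the lower panels the summed CPM (y axes, from 0) of 12 markers of recruited macrophages and of stellate cells. Points are pools and bars the mean ± SD (n = 3), and control pool 2 is the lowest control in all 4 panels.

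Angptl4 encodes an inhibitor of lipoprotein lipase that rises in fasting, and lies on chromosome 17 (chr17:33773750-33781575, minus strand). It was read at 155, 178 and 182 CPM in the controls and at 142, 144 and 202 CPM in the *Mttp-IKO* pools. *Mttp-IKO* pool 3 exceeded all controls and the other *Mttp-IKO* pools lay below them. Its log2 fold change was −0.08 ± 0.19 (SE, edgeR adjusted p = 0.850), with a sign that turned without *Mttp-IKO* pool 1 or without pool 2.

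Angptl8 encodes a partner of the ANGPTL inhibitors that feeding raises, and lies on chromosome 9 (chr9:21835510-21837346, plus strand) inside Dock6, which runs on the opposite strand and shares no exon base with it. Its levels were 48.4, 167 and 79.1 CPM in the controls and 55.3, 85.9 and 29.3 CPM in the *Mttp-IKO* pools. It varied most of the 9 within *Mttp-IKO* pools and within control pools, with coefficients of variation of 49.9% and 62.8%. Between genotypes the log2 fold change was −0.79 ± 0.50 (SE, edgeR adjusted p = 0.382). Its transcript of 864 nt falls among the short genes that were few in *Mttp-IKO* pool 3, the pool where it was lowest. The log2 fold change was −0.47 without that pool, −0.18 without control pool 2, where it was highest, and 0.14 without both, and −0.60 once each pool's trend with gene length was removed. None of these values passed the test.

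Among 11 secreted modulators of lipoprotein lipase, all tested, 1 rose and none fell (9.09%, beside 4.01% of all genes). It was Furin, the protease that cleaves ANGPTL proteins and lipoprotein lipase, at 583, 674 and 596 CPM in the controls and at 978, 1398 and 1261 CPM in the *Mttp-IKO* pools. Every *Mttp-IKO* pool exceeded every control pool (log2 fold change 0.97 ± 0.20 SE, edgeR adjusted p = 0.0435). Apoc1, an apolipoprotein that restrains the lipase, was at 1201, 1461 and 1319 CPM in the controls and at 976, 1030 and 375 CPM in the *Mttp-IKO* pools, with its lowest value again in the pool poor in short genes (log2 fold change −0.74, edgeR adjusted p = 0.265). Its log2 fold change was −0.40 without that pool and −0.34 without that pool and control pool 2, and neither value passed. Pcsk6, a protease of the same family as Furin, was at 86.4 to 106 CPM in control and 113 to 170 CPM in the *Mttp-IKO* pools (log2 fold change 0.52, edgeR adjusted p = 0.169).

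**Figure D3:**
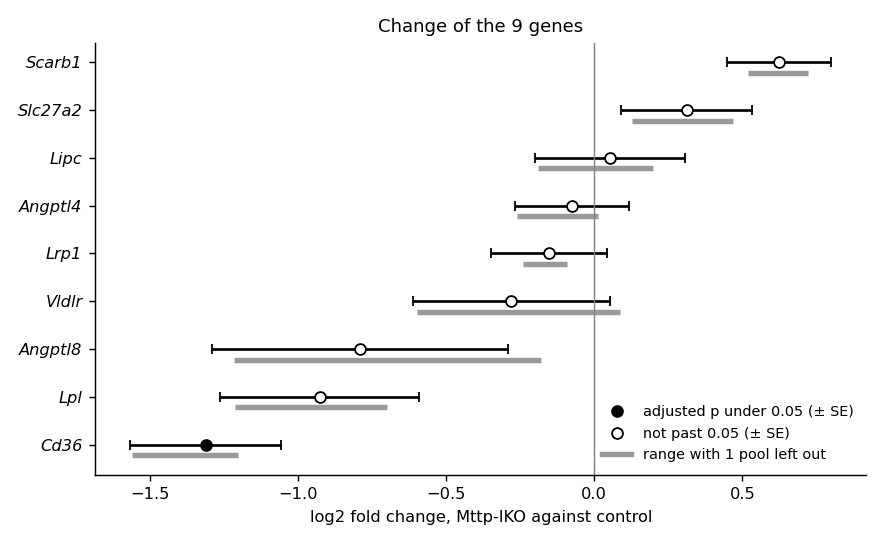
The log2 fold change of each gene (x axis, *Mttp-IKO* against control) is shown by a point with its SE, filled where the edgeR adjusted p was under 0.05, above a grey bar for its range when 1 pool was left out. Only the point of Cd36, at −1.31, is filled, and the grey bars of Lipc, Angptl4 and Vldlr cross 0.

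Lrp1 encodes a large endocytic receptor for chylomicron remnants and lies on chromosome 10 (chr10:127538161-127621148, minus strand). It was read at 2632, 2144 and 2339 CPM in the controls and at 1985, 2213 and 2202 CPM in the *Mttp-IKO* pools. The groups overlapped and each varied little, with coefficients of variation of 10.4% and 6.04%. Lrp1 had a log2 fold change of −0.15 ± 0.19 (SE, edgeR adjusted p = 0.675).

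Vldlr encodes the very low density lipoprotein receptor, which binds triglyceride-rich particles, and lies on chromosome 19 (chr19:27216484-27254231, plus strand). Its levels were 10.6, 7.07 and 3.94 CPM in the controls and 5.83, 5.76 and 6.21 CPM in the *Mttp-IKO* pools. All 3 *Mttp-IKO* pools lay within the range of the controls. Vldlr had a log2 fold change of −0.28 ± 0.33 (SE, edgeR adjusted p = 0.651), and its sign turned without control pool 1.

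Scarb1 encodes scavenger receptor BI, which takes up cholesteryl esters from high density lipoproteins, and lies on chromosome 5 (chr5:125277087-125341094, minus strand). It was read at 241, 205 and 228 CPM in the controls and at 344, 396 and 300 CPM in the *Mttp-IKO* pools. Every *Mttp-IKO* pool exceeded every control pool, with means of 346 ± 48.1 and 225 ± 18.0 CPM (SD, n = 3 each). The log2 fold change of 0.62 ± 0.18 (SE) did not pass edgeR's test (adjusted p = 0.0912). It passed by DESeq2 (adjusted p = 0.0106), without *Mttp-IKO* pool 3 (edgeR adjusted p = 0.0373) and without that pool and control pool 2 (edgeR adjusted p = 0.0344). Of 12 hepatocyte markers none passed edgeR's test or limma-voom, with 5 at an unadjusted p under 0.05, and 3 rose by DESeq2. Their summed level was 63528 to 98722 CPM in control and 117372 to 171999 CPM in the *Mttp-IKO* pools. Alb alone gave 40131 to 69005 CPM of it in control and 84785 to 132236 CPM in the *Mttp-IKO* pools, while Ttr and Hpx had log2 fold changes of −0.55 and −0.29. The part of the hepatocyte sum in the level of Scarb1 was not tested.

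Of the 29 lipoprotein receptors and partners reported here, all tested, 2 fell, which is 6.90% beside 4.01% of all genes. Hspg2, which encodes the heparan sulfate proteoglycan perlecan, was at 328, 259 and 287 CPM in the controls and at 155, 175 and 177 CPM in the *Mttp-IKO* pools (log2 fold change −0.78 ± 0.17 SE, edgeR adjusted p = 0.0456). Sorl1, a sorting receptor that also guides Lpl inside cells, was at 35.5, 16.4 and 25.4 CPM in the controls and at 9.99, 10.7 and 12.1 CPM in the *Mttp-IKO* pools (log2 fold change −1.24 ± 0.27 SE, edgeR adjusted p = 0.0485). Neither overlapped between groups, and control pool 2 was the lowest control for both. Sorl1 did not pass with DESeq2's size factors or by limma-voom (adjusted p = 0.0506 and 0.0750). Pdzk1, the adaptor that holds scavenger receptor BI at the hepatocyte membrane, was at 17.2, 22.2 and 20.2 CPM in the controls and at 14.3, 8.44 and 7.22 CPM in the *Mttp-IKO* pools without overlap, but did not pass (log2 fold change −0.99, edgeR adjusted p = 0.0804). Of the exon bases of Pdzk1, 39.4% are shared with Cd160 and Gpr89 on the opposite strand. Scarb1 and Pdzk1 thus had fold changes of opposite sign, and neither passed edgeR's test.

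Compared per length, Slc27a2 was the highest of the 9 genes in control pools, at 193 ± 17.3 RPKM (SD, n = 3), and Vldlr the lowest, at 0.714 ± 0.329 RPKM. Between them stood Lrp1 at 134 ± 13.9, Angptl8 at 114 ± 71.5, Cd36 at 64.9 ± 19.1, Angptl4 at 52.2 ± 4.44, Scarb1 at 35.7 ± 2.86, Lpl at 24.7 ± 8.79 and Lipc at 18.4 ± 5.30 RPKM. The pools of Lrp1 and Angptl8, of Angptl8 and Cd36, of Cd36 and Angptl4, and of Lpl and Lipc overlapped, so these neighbours had no firm order. In *Mttp-IKO* pools Slc27a2, at 239 ± 56.3 RPKM, and Lrp1, at 120 ± 7.27 RPKM, were again the highest, and Vldlr, at 0.589 ± 0.0238 RPKM, the lowest of all, while Angptl8, at 65.8 ± 32.8 RPKM, came right after Lrp1. By its mean Cd36 moved from the fourth to the sixth place, at 26.1 ± 3.96 RPKM. It came below Scarb1 at 55.1 ± 7.65 and Angptl4 at 49.5 ± 10.4 RPKM. The *Mttp-IKO* pools of Angptl8 and Scarb1, of Scarb1 and Angptl4, and of Cd36 and Lipc overlapped. These neighbours had no firm order either. All 3 *Mttp-IKO* pools of Scarb1 lay above those of Cd36, whereas in control pools all 3 of Cd36 lay above those of Scarb1. Lpl, at 13 ± 4.16 RPKM, came after Lipc, at 19.1 ± 4.12 RPKM, with overlapping pools.

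**Figure D4:**
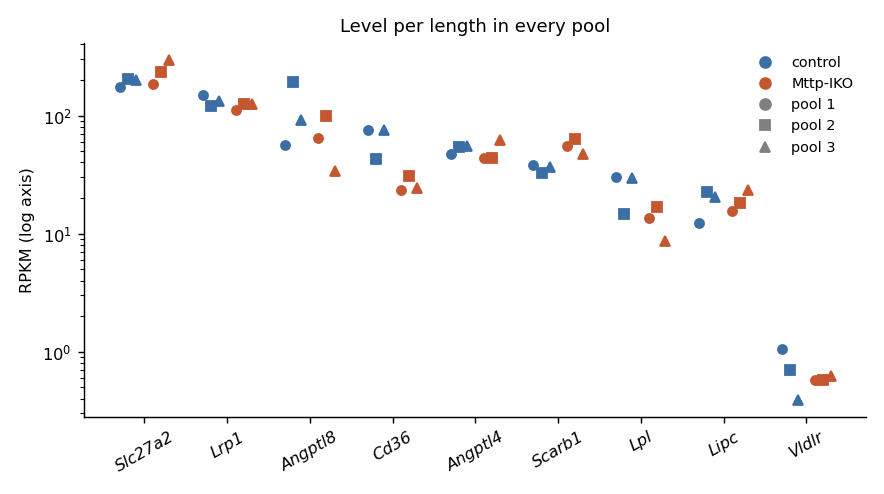
Level per length in RPKM (y axis, log scale) of the 9 genes, ordered along the x axis by their mean in control pools, with 1 point per control and *Mttp-IKO* pool. Slc27a2 is at the top at 193 RPKM and Vldlr at the bottom at 0.714 RPKM in control pools, and Cd36 lies above Scarb1 in control pools and below it in *Mttp-IKO* pools.

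Nuclear receptors and coregulators known to control the 9 genes, PPAR-alpha, PPAR-gamma and the LXRs among them, made a list of 18 genes, all tested. Of these 1 rose and none fell (5.56%, beside 4.01% of all genes). Srebf2, the activator of cholesterol synthesis and of the LDL receptor, was at 93.7, 143 and 114 CPM in the controls and at 203, 238 and 223 CPM in the *Mttp-IKO* pools (log2 fold change 0.92 ± 0.20 SE, edgeR adjusted p = 0.0446). Ppargc1a, a coactivator of fatty acid oxidation, was at 29.0, 40.6 and 38.1 CPM in the controls and at 45.5, 98.5 and 95.7 CPM in the *Mttp-IKO* pools without overlap, but did not pass (log2 fold change 1.15, edgeR adjusted p = 0.0724). Hnf4a, the hepatocyte regulator, was at 564 to 686 CPM in control and 868 to 1318 CPM in the *Mttp-IKO* pools, likewise without overlap and without passing (log2 fold change 0.87, edgeR adjusted p = 0.0664).

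Of 15 targets of PPAR-gamma in fatty liver, a list that also holds Cd36 and Lpl, 11 were tested, and 3 fell and none rose (27.3%, beside 4.01% of all genes). Besides Cd36 these were Aqp7 and Fitm1. Aqp7, a glycerol channel, was at 4.59, 1.41 and 2.53 CPM in the controls and at 0.193, 0.412 and 0.671 CPM in the *Mttp-IKO* pools, a low level in every pool (log2 fold change −2.76 ± 0.58 SE, edgeR adjusted p = 0.0433), and did not pass by limma-voom (adjusted p = 0.0753). Fitm1, a protein of fat storage best known from muscle, was at 6.45, 9.81 and 8.46 CPM in the controls and at 2.19, 2.5 and 2.77 CPM in the *Mttp-IKO* pools (log2 fold change −1.73 ± 0.24 SE, edgeR adjusted p = 0.0181), and 11.2% of its exon bases are shared with Gm15932 on the opposite strand. Fabp4, the fatty acid-binding protein of adipocytes and macrophages, was at 24.3, 14.9 and 21.4 CPM in the controls and at 11.0, 9.53 and 1.97 CPM in the *Mttp-IKO* pools and did not pass (log2 fold change −1.42, edgeR adjusted p = 0.162). At 637 nt it falls among the short genes that were few in *Mttp-IKO* pool 3, where it was lowest. It passed by DESeq2 (adjusted p = 0.0441). Without that pool and control pool 2 together it also passed (log2 fold change −1.16, edgeR adjusted p = 0.00721). The list's median log2 fold change was −0.18, with 6 of the 11 genes below 0 and 5 above, and 4 genes were not tested for low counts.

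Over all 6 lists 103 reported genes were tested, and 8 fell and 2 rose (9.71%, beside 4.01% of all genes), while their median log2 fold change was 0.05. By edgeR 0 list genes passed when control pool 1, control pool 3 or *Mttp-IKO* pool 2 was left out, where 26, 22 and 30 had an unadjusted p under 0.05, and only Ppargc1a passed without *Mttp-IKO* pool 1. Without control pool 2 and *Mttp-IKO* pool 3 together 26 list genes passed.

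**Figure D5:**
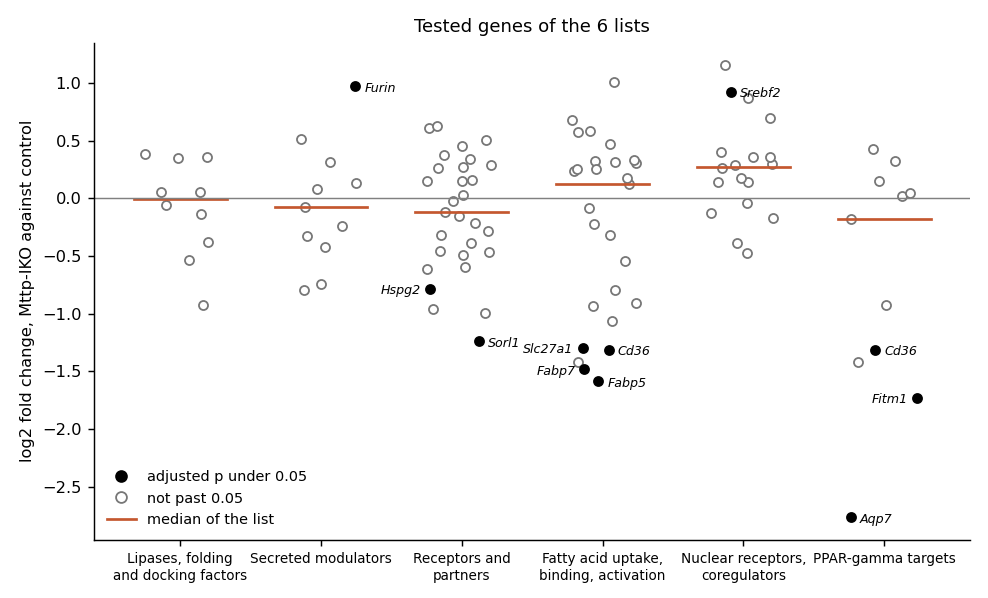
The log2 fold change (y axis, *Mttp-IKO* against control) of each tested gene of the 6 lists (x axis) is 1 point, filled and named where the edgeR adjusted p was under 0.05, and a line marks each list's median. Cd36 stands in 2 lists, and the filled points range from Aqp7 at −2.76 to Furin at 0.97.

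Markers of other cells had the levels that follow, and their part in the results was not tested. Among recruited macrophage markers the receptor Trem2, which marks lipid-laden macrophages, was at 36.0, 14.2 and 38.4 CPM in the controls and at 4.90, 6.96 and 2.52 CPM in the *Mttp-IKO* pools (edgeR adjusted p = 0.0293). Control pool 2 was the lowest control, as it was for Cd36, Lpl, Fabp4, Fabp5, Fabp7, Hspg2, Sorl1 and Aqp7. It was also the lowest control for Lrp1, which overlapped between groups, and for Scarb1, which was higher in every *Mttp-IKO* pool. For Slc27a1 and Fitm1, which fell, control pool 1 was the lowest control. Of 10 markers of resident Kupffer cells 1 rose by edgeR, Timd4, and none fell, with 6 at an unadjusted p under 0.05, while DESeq2 called 2 lower and 1 higher and limma-voom none. Their sums were 572 to 937 CPM in control and 383 to 859 CPM in the *Mttp-IKO* pools, and the macrophage gene Adgre1 was at 31.6 to 63.5 and at 21.7 to 31.4 CPM without overlap (log2 fold change −0.98, edgeR adjusted p = 0.0895). Stellate cell markers summed to 1068 to 1812 CPM in control and 680 to 796 CPM in the *Mttp-IKO* pools, and 6 of 12 fell (50%, beside 3.09% of all genes). The 12 endothelial markers summed to 572 to 712 and to 614 to 667 CPM, and none passed edgeR's test, DESeq2 or limma-voom, with 1 at an unadjusted p under 0.05. Of 10 adipocyte markers 4 were tested and none passed edgeR's test or limma-voom, with 2 at an unadjusted p under 0.05 and 1 that rose by DESeq2. Their sums of 281 to 373 and of 322 to 637 CPM came mostly from Pnpla2 and Cidec, which hepatocytes also make, while Lep, Slc7a10 and Adig stayed at or under 0.222 CPM. Cfd, which encodes the adipokine adipsin, was at 0.620, 16.4 and 1.09 CPM in the controls and at 0.774, 0.137 and 0 CPM in the *Mttp-IKO* pools, and Retn, the gene of resistin, was at 0, 0.915 and 0.187 CPM in the controls and at 0 in all 3 *Mttp-IKO* pools. Of the 10 muscle markers 3 were tested and none passed edgeR's test or limma-voom, with 3 at an unadjusted p under 0.05 and 3 that fell by DESeq2.

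The genes whose pattern over the 6 pools was nearest to each of the 9 were found among 9036 protein-coding genes by the root mean square difference of log2 CPM, after each gene was centred on its own mean. They describe these 6 pools, which share 2 genotypes. Nearest to Cd36 were Slc15a3 at 0.0717 and Cd84 at 0.0906, with log2 fold changes of −1.29 each. Nearest to Lpl were Fermt3 at 0.0993 and Dok2 at 0.122. Nearest to Scarb1 were Jade2 at 0.0696 and Pcsk5 at 0.0702, with log2 fold changes of 0.56 and 0.65.

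Lipc was matched most closely by Aqp9 at 0.0422 and Slc6a12 at 0.0879, and Slc27a2 by Ctdspl2 at 0.0349 and BC048403 at 0.0429. For Angptl4 the nearest were Polr2m at 0.0241 and Kdsr at 0.0423, and for Lrp1 they were Phf20 at 0.0492 and Itga1 at 0.0508. Vldlr and Angptl8 had no close match, with Vps51 at 0.247 and Nnt at 0.253 for the former and Apol7a at 0.307 and Sucnr1 at 0.343 for the latter. Among the 36 pairs of the 9 genes themselves, Angptl4 and Slc27a2 were nearest at 0.214, and Cd36 and Lpl were the fifth nearest pair at 0.298. The measure is not scaled by how much a gene varied, so genes that varied little lie near one another whatever their direction. Angptl4 and Slc27a2 had log2 fold changes of opposite sign, −0.08 and 0.31.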

How the data were processed

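The authors pooled liver RNA by genotype and made libraries after ribosomal RNA depletion. Per the labels and the study's methods, reads were aligned with STAR 2.5.1a to GRCm38 with the Ensembl annotation and counted with featureCounts 1.4.6-p5, with strand use not given in the sources used here. The authors deposited unnormalized read counts of 41388 genes for each of the 6 pools. The deposited CPM and RPKM follow from these counts within 0.01 and were not tested. A deposited table of 40481 genes, with 276 repeated lines dropped, gave symbols and the same counts.

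Samples were grouped by their labels. Counts were filtered with filterByExpr (minimum count 10, minimum total 15), scaled by TMM and tested with edgeR 4.0.16 (R 4.3.3) by genotype. The SE is the absolute log2 fold change over the square root of the F statistic. CPM and RPKM in the text were computed here from the counts with TMM scaling and the exon length deposited with the counts. Alternatives were DESeq2 1.42.0, limma-voom 3.58.1, other scalings and filters, removal of a loess length trend (span 0.3), a replicate block and leaving out each pool. Exact permutation tests used scipy 1.17.1, on log2 ratios with 0.5 read added. Counts were simulated with the library sizes of this comparison and 200 of 16943 genes changed 4-fold. Of these, edgeR found 176 with 16 others, DESeq2 178 with 30 and limma-voom 174 with 13. The simulation capped the spread of each gene between pools, so noisy genes varied less in it than in these data. It also held none of the differences between pools in short genes and muscle genes.

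The 9 genes and the gene lists were chosen with earlier results of these data known. An item of the lists is not reported here and is in no count of list genes. The genes named are the 9, the genes of each list that passed the test with, where fewer than 3 passed, those of largest absolute log2 fold change and a mean log2 CPM of 1 or more, and the 2 of nearest pattern (mean log2 CPM of 3 or more, with 0.5 CPM added). Marker genes, overlapping genes and Mttp are named beside the results they touch. Promoter windows came from RefSeq. Counting floors cover counting error only. Figures were drawn with matplotlib 3.10.9.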

Additional observations from a re-analysis of the deposited data

How the results depend on the processing

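Of the 9 genes, 1 passed the test, and 0 to 1 did with 1 pool left out. The number was 2 by DESeq2, 0 with a replicate block and 3 without control pool 2 and *Mttp-IKO* pool 3 together, an alternative chosen after the data were seen. Of the list genes 10 passed, 20 by DESeq2, 26 without those 2 pools and 0 to 12 with 1 pool left out. Of all genes 694 passed, 1995 by DESeq2, 428 by limma-voom, 2146 without those 2 pools and 0 to 892 with 1 pool left out. With *Mttp-IKO* pool 2 left out 0 passed by edgeR, with 3221 at an unadjusted p under 0.05. The cause was not tested. As many pools remained without control pool 2, where 892 passed, and without *Mttp-IKO* pool 3, where 864 passed. Cd36 kept its direction under all 16 alternatives, at −1.56 to −1.20, with an adjusted p of 0.000103 to 0.135. The sign of Lipc turned with total counts scaling (−0.12), without control pool 1 (−0.19) and without *Mttp-IKO* pool 3 (−0.13), its range with 1 pool left out being −0.19 to 0.20. It turned for Vldlr without control pool 1 (0.086, range −0.60 to 0.086), for Angptl4 without *Mttp-IKO* pool 1 (0.013, range −0.26 to 0.013) or 2 (0.0060), and for Angptl8 without the 2 pools together (0.14), and none of these values passed. Total counts scaling moved the median log2 fold change of all genes from 0.01 to −0.17 and the share of higher calls from 22.9% to 11.0%. The length trend moved that share to 37.4%, and leaving out the 2 pools to 28.6%. Pools of the same replicate number had correlations of their deviations of 0.139, 0.112 and 0.00698 for numbers 1 to 3. Pools of different numbers had correlations of −0.125 to 0.0208. *Mttp-IKO* pool 3 correlated slightly more with control pool 2 (0.0208) than with control pool 3. These values do not settle whether the numbers pair the pools. With the replicate block 592 genes, 7 list genes and 0 of the 9 passed, and Cd36 had a log2 fold change of −1.28 (edgeR adjusted p = 0.0615). Aqp7, Fabp5, Furin, Hspg2 and Sorl1 did not pass with the block either (edgeR adjusted p 0.0550 to 0.0826). By limma-voom 7 list genes passed, without Aqp7, Fabp5 and Sorl1. Both ratios kept their sign under all alternatives, at −1.49 to −0.55 for Lpl to Lipc and −1.89 to −1.34 for Cd36 to Slc27a2 with 1 pool left out. Depth limits Vldlr most of the 9, at 126 to 426 reads per pool.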
